A study of Caenorhabditis briggsae with 13 samples.

Results

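On an array with several probes per gene, 5 genes of the nematode Caenorhabditis briggsae stood out because their best-ranked probe (A) and their next probe (B) moved in opposite directions between the 4-cell and the 190-cell embryo. A gene was taken when each probe reached a level of at least 0 at its highest stage, and when the level of 1 probe rose by at least 1.5 and that of the other fell by at least 1.5 from 4 to 190 cells. A level here is the log2 intensity of the probe minus the log2 75th percentile of all probes on the same array, so that a level of 0 is the brightness at that percentile. The arrays carried 19528 genes, of which 19133 had both an A and a B probe, and 4868 of these had both probes at or above the level minimum. The 5 genes were found among these 4868. In WBGene00027677, WBGene00000333 and WBGene00041459 the B probe rose and the A probe fell. In WBGene00026565 and WBGene00040537 the A probe rose and the B probe fell. The genes were thus selected on their 4-cell and 190-cell levels, which are given below as a description and carry no test.

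The samples were RNA of staged embryos of the wild strain AF16 with no treatment, 50 embryos pooled per sample, amplified by repeated in vitro transcription, labelled with Cy3, a fluorescent dye, and hybridised to 1 array each. There were 2 arrays of the 4-cell stage, 3 of the 28-cell stage at 55 min after it, 3 of the 55-cell stage at 80 min, 2 of the 95-cell stage at 120 min and 3 of the 190-cell stage at 160 min, 13 in all. Per the labels, the replicates, lettered A to C, were biological. Each sample was RNA of whole embryos, in which fewer cells of a type and less RNA per cell cannot be told apart.

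Embryos of Caenorhabditis begin with messenger RNA laid down by the mother, which is degraded over the first divisions while transcription from the embryo's own genome takes over. A gene can contribute to both pools, and its maternal and zygotic transcripts can differ in start site, splicing or 3′ end, so that probes at different places along a gene need not see the same molecules. The design text places probes within coding sequence, by preference toward the 3′ end, or in the presumed 3′ UTR shortly after the stop codon, and keeps them off splice junctions. Where the A and B probes of the 5 genes lie is not given in the sources used here, nor are their sequences. The reference table matched 0 of the array's gene identifiers, so the genes are named by identifier alone and no role can be given for them.

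Some arrays need a caution before the results. The stage tag of 4 arrays, replicate B of 28 cells, replicate A of 55 cells, replicate A of 95 cells and replicate B of 190 cells, reads 4-cell against the title, and the titles were followed. The scanner output supplied for replicate C of 28 cells duplicated that of replicate C of 190 cells, so that it has no detection flags of its own. Its values, like those of every array, were taken from the deposited series table. Over the 13 arrays the brightness at the 75th percentile lay between 234.8 and 546.6. Probes well above background made up 39.7% to 67.9% of all probes on the 12 arrays with flags and were fewest on the 4-cell arrays. Of these 12 arrays, 9 were scanned on a first date, among them both 4-cell arrays, and 3 on a second date, namely replicate C of 55 cells, replicate B of 95 cells and replicate C of 190 cells. No spot of the 5 genes was flagged as saturated or as an outlier. Precision is limited throughout by how few arrays each stage has.

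Opposed probes were rare on these arrays. Across the 4868 genes the changes of the A and B probes from 4 to 190 cells had Pearson's r = 0.963, where the points share arrays and scaling. Both probes moved by at least 1.5 in 2713 genes, in the same direction in 2708 and in opposite directions in 5. Any difference in sign, whatever its size, was found in 196 genes (4.03%). At a threshold of 1.0 there were 18 opposed genes, and at 2.0 there were 3. The gene nearest the threshold on the inside was WBGene00040537, whose B probe changed by -1.53. The nearest outside were WBGene00034621, whose A probe changed by -1.48 and B probe by 1.56, and WBGene00035240, with 1.48 for A and -1.62 for B. Another 448 genes met the change but not the level minimum, 273 of them with both probes under it and 175 with 1 probe. Both probes were well above background on every 4-cell and 190-cell array in 4170 of the 4868 genes. This held for 3 of the 5 genes described here (WBGene00026565, WBGene00041459 and WBGene00040537). It held for 2 of the 448 genes, which were dim by the rule itself. Without replicate A of 190 cells WBGene00041459 (B probe 1.497) and WBGene00040537 (B probe -1.47) fell short of the threshold, and without replicate C of that stage WBGene00040537 did (-1.25). Leaving out replicate B of 190 cells kept all 5 genes and brought the list to 8.

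**Figure D1:**
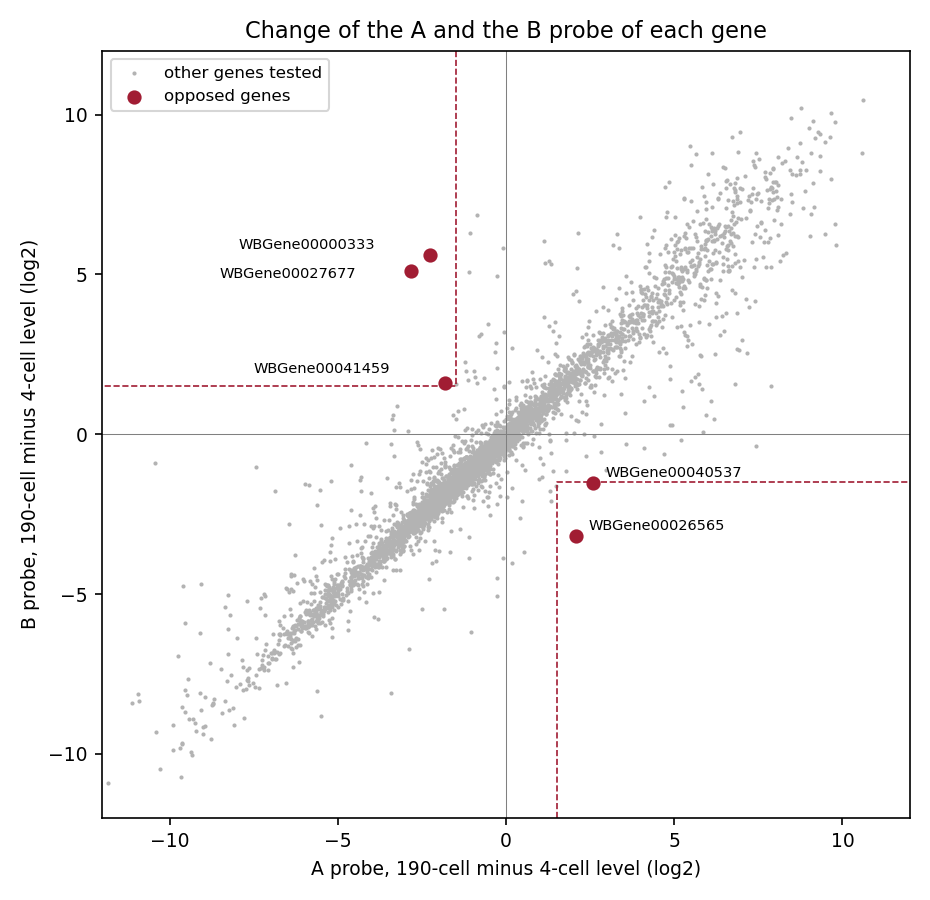
Change in level from 4 to 190 cells (log2) of the A probe (horizontal) and the B probe (vertical) for 4868 genes, each a grey point, with the 5 opposed genes in red and the threshold of 1.5 dashed. Most genes lie along the diagonal (r = 0.963), while the 5 genes lie in the corners where 1 probe rose and the other fell.

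The median change of all probes of the 4868 genes was -1.08 in this scaling, 0.21 when the scaling used only probes detected on every array with flags, and -0.055 when it used spike-in probes. A shift of that size moves both probes of a gene alike. It therefore bears on whether a probe rose or fell, and not on whether the probes of a gene parted. Relative to the median change, the falling probe lay at -1.75 in WBGene00027677, -1.18 in WBGene00000333, -2.11 in WBGene00026565, -0.74 in WBGene00041459 and -0.45 in WBGene00040537. The rising probes lay at 6.17, 6.68, 3.17, 2.67 and 3.68 in the same order. The fall of the B probe of WBGene00040537 was thus the one nearest to the common shift. With scaling on detected probes the falls were -1.54, -0.97, -1.90, -0.53 and -0.24, and with spike-ins -1.80, -1.24, -2.16, -0.80 and -0.51, in the same order of genes. Under each of these scalings 2 of the 5 genes still met the threshold, WBGene00027677 and WBGene00026565, among 6 that did so in all.

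**Figure D2:**
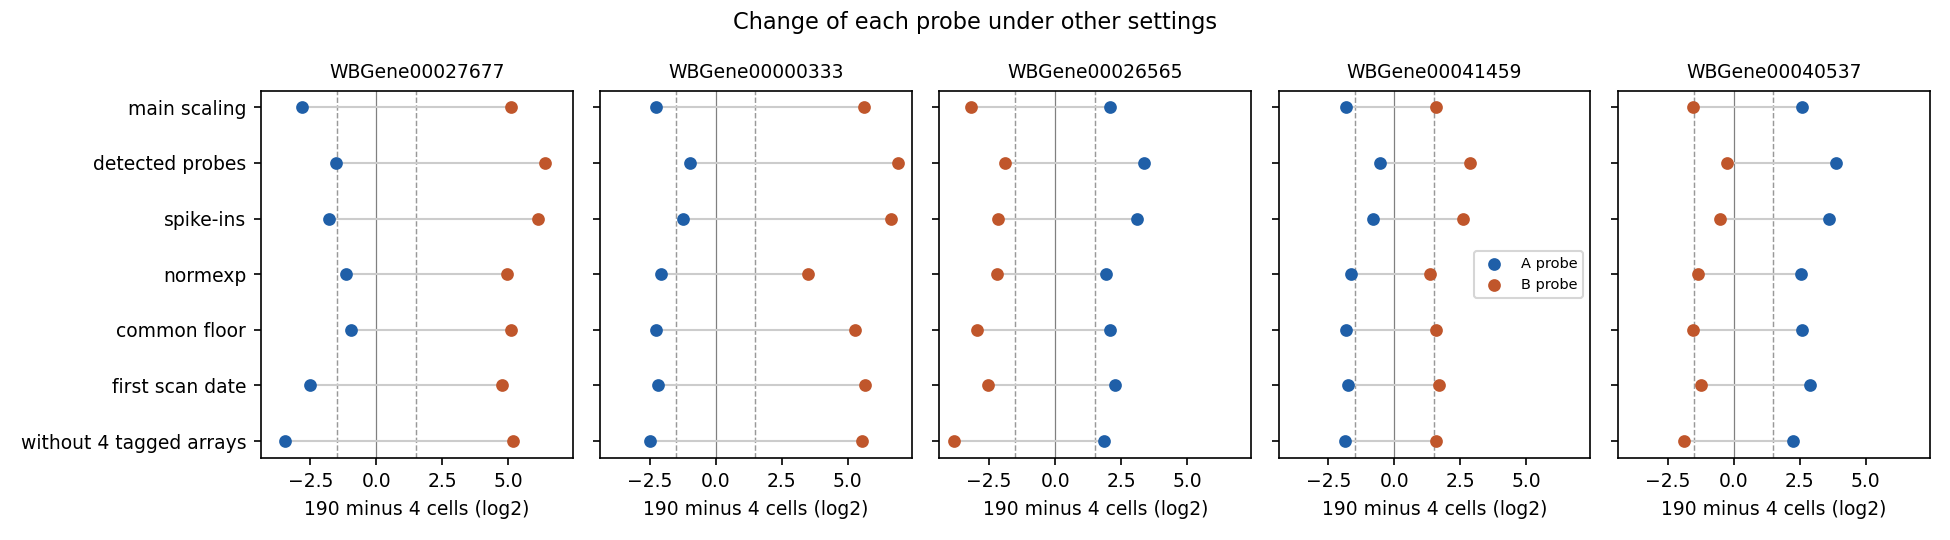
Change from 4 to 190 cells (log2) of the A probe (blue) and B probe (orange) of each gene under the main scaling and 6 other settings, with the threshold of 1.5 dashed on both sides of 0. The genes were chosen for probes on opposite sides of 0. The falling probes of WBGene00041459 and WBGene00040537 come closest to 0, at -0.53 and -0.24 with scaling on detected probes.

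The A probe of WBGene00027677 was bright only at 28 cells and dim at both ends, while its B probe rose through the whole course. The A probe stood at -2.36 and -2.78 on the 4-cell arrays, at 2.30, 1.43 and 1.91 on the 28-cell arrays and at -0.54, -0.85 and -0.93 on the 55-cell arrays. It was at -5.15 and -4.81 at 95 cells and at -6.09, -4.08 and -6.02 at 190 cells, where replicate B was the highest. In raw brightness it went from 45.6 and 43.4 at 4 cells to 1929, 994.1 and 1107 at 28 cells and to 5.85, 19.7 and 8.43 at 190 cells. Its signal was not well above background on replicate A of 95 cells and replicate A of 190 cells.

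**Figure D3:**
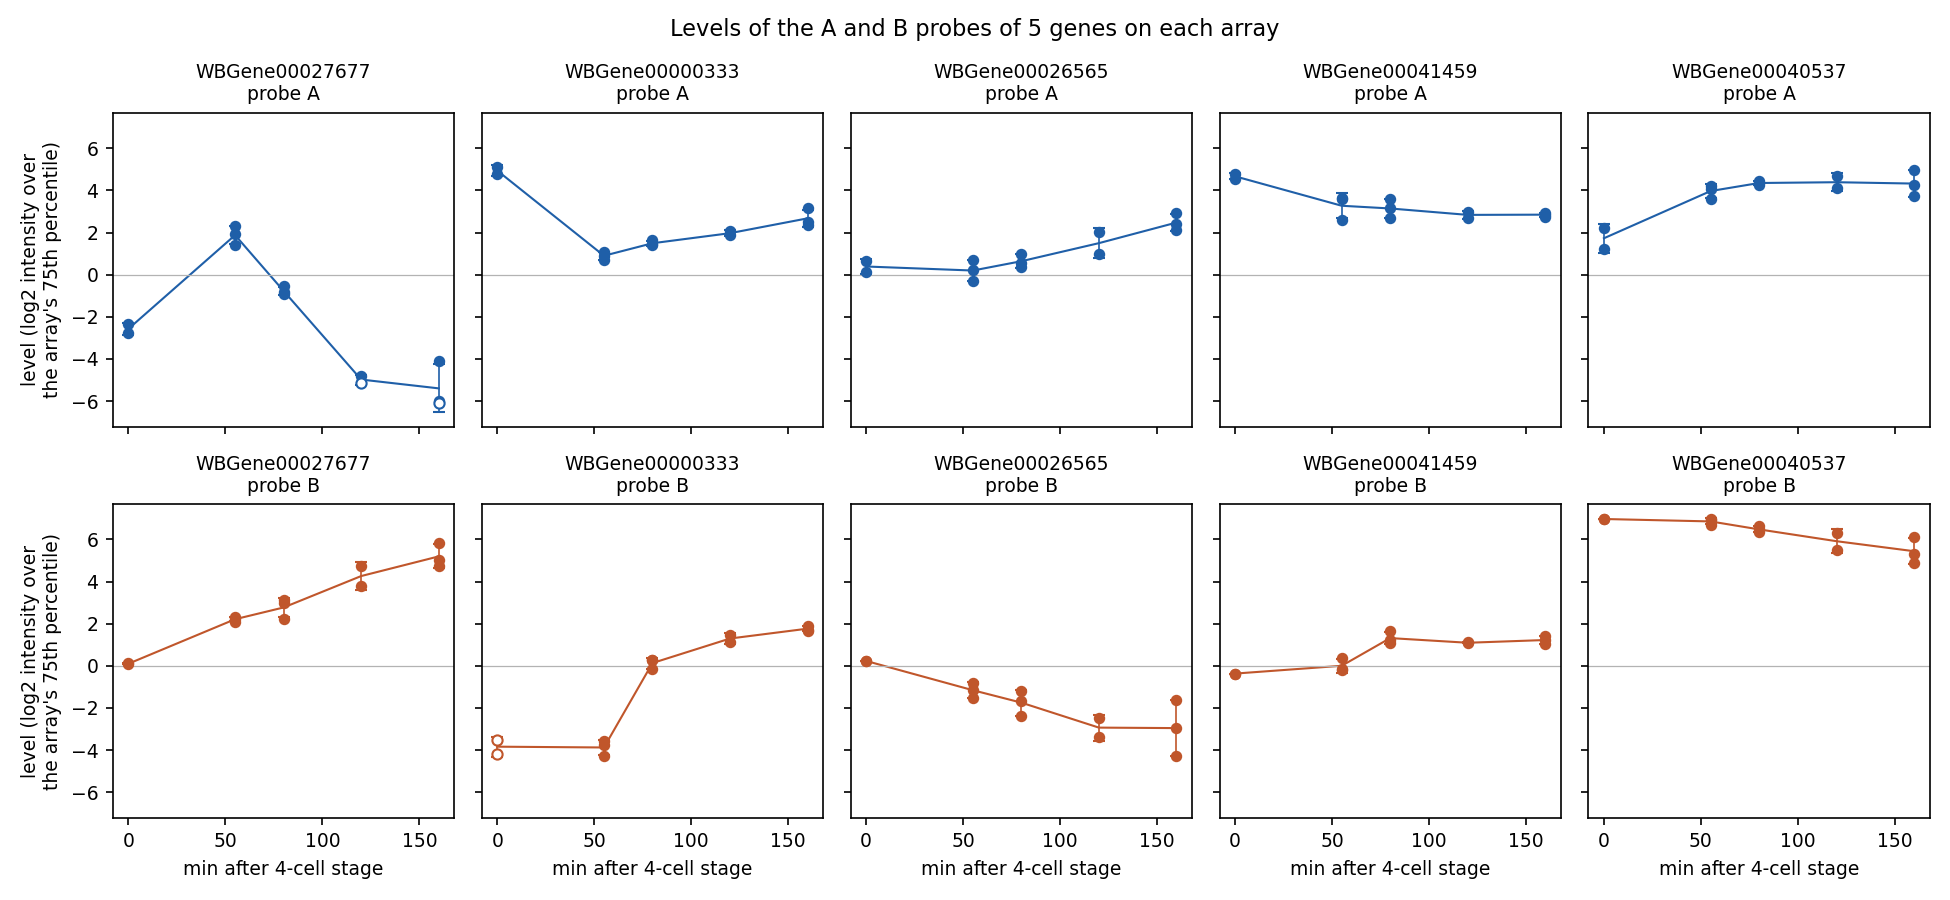
Level of the A probe (blue, upper row) and B probe (orange, lower row) of the 5 genes against minutes after the 4-cell stage, 1 point per array, with lines through stage means and bars of 1 SD (n = 2 or 3). Open points were not well above background, and replicate C of 28 cells, at 55 min, has no such flag and is drawn filled. The A probe of WBGene00027677 peaks at 28 cells, and the A probe of WBGene00000333 drops to its lowest mean there.

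The B probe of WBGene00027677 stood at 0.12 and 0.08 at 4 cells, at 2.30, 2.24 and 2.11 at 28 cells and at 2.98, 2.23 and 3.105 at 55 cells. It reached 3.798 and 4.73 at 95 cells and 4.73, 5.02 and 5.84 at 190 cells. Every later array lay above both 4-cell arrays, and only the 28-cell and 55-cell arrays overlapped among neighbours in the order of means, although the 95-cell and 190-cell arrays came within rounding of each other. From 4 to 190 cells the B probe changed by 5.09, a 34.2-fold rise, and the A probe by -2.83. The fall of the A probe rests on signals near background: its change was -0.97 with dim signals raised to a common floor and -1.16 with normexp background correction, both short of the threshold, so that the gene leaves the list under either setting. The A probe's course was not a steady decline: its mean rose by 4.45 from 4 to 28 cells and then changed by -2.65, -4.21 and -0.42 over the next intervals, the last within the spread of the 190-cell arrays (SD 1.14, n = 3). The B probe changed by 2.11, 0.56, 1.49 and 0.93 over the same intervals.

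In WBGene00000333 the A probe collapsed between 4 and 28 cells, and the B probe switched on between 28 and 55 cells. The A probe was at 4.76 and 5.11 at 4 cells, at 0.89, 1.09 and 0.72 at 28 cells and at 1.45, 1.62 and 1.41 at 55 cells. It then stood at 2.07 and 1.87 at 95 cells and at 2.37, 3.15 and 2.51 at 190 cells. No stage overlapped with its neighbour in the order of means, which ran from 28 cells as the lowest through 55, 95 and 190 cells up to 4 cells. The A probe thus regained part of its first drop at each later stage.

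The B probe of WBGene00000333 was at -4.17 and -3.50 at 4 cells and at -3.59, -4.28 and -3.76 at 28 cells, and these stages overlapped. It stood at -0.17, 0.29 and 0.28 at 55 cells, at 1.47 and 1.12 at 95 cells and at 1.73, 1.91 and 1.66 at 190 cells. From 55 cells on each stage lay above the one before it with no overlap. The A probe changed by -2.26 from 4 to 190 cells (4.80-fold lower) and the B probe by 5.60. Neither 4-cell array had the B probe well above background, so the size of its rise is uncertain. Raising it on replicate A of 4 cells to that array's lowest signal well above background gave a 41.9-fold rise. On replicate B of 4 cells its own signal already lay above such a minimum and was left unchanged. Normexp background correction put the change of the B probe at 3.50, against 5.28 when dim signals were raised to a common floor. The 41.9-fold value is therefore not a lower bound under every treatment of dim signals. By intervals the A probe changed by -4.04, 0.59, 0.48 and 0.70, and the B probe by -0.038, 4.01, 1.16 and 0.47, so that each probe made its largest step in a different interval.

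WBGene00026565 showed a gradual exchange, with the A probe rising late and the B probe declining from the start. The A probe stood at 0.12 and 0.66 at 4 cells, at 0.69, 0.20 and -0.30 at 28 cells and at 0.38, 1.00 and 0.54 at 55 cells. It was at 2.01 and 0.98 at 95 cells and at 2.39, 2.91 and 2.13 at 190 cells. The first 3 stages overlapped with one another, the 95-cell arrays overlapped with those of 55 cells, and the 190-cell arrays lay above all others.

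The B probe of WBGene00026565 was at 0.24 and 0.22 at 4 cells, at -0.80, -1.12 and -1.55 at 28 cells and at -1.17, -1.66 and -2.40 at 55 cells. It fell to -2.49 and -3.37 at 95 cells and stood at -2.97, -1.64 and -4.26 at 190 cells. The 190-cell arrays spread over more than the change of the last interval (SD 1.31, n = 3, against a step of -0.023), with replicate B the highest of them. The A probe changed by 2.09 from 4 to 190 cells (4.25-fold) and the B probe by -3.19 (9.11-fold lower), and both probes were detected on every 4-cell and 190-cell array. The steps of the A probe were -0.19, 0.44, 0.86 and 0.98, and those of the B probe -1.39, -0.59, -1.19 and -0.023.

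WBGene00041459 had the smallest parting of the 5 genes from 4 to 190 cells, and both of its probes were steady after 55 cells. The A probe stood at 4.57 and 4.78 at 4 cells, at 3.66, 3.57 and 2.59 at 28 cells and at 3.57, 2.69 and 3.17 at 55 cells. It was at 2.97 and 2.71 at 95 cells and at 2.86, 2.94 and 2.75 at 190 cells. The 4-cell arrays lay above all others, and the later stages overlapped with their neighbours in the order of means. The B probe was at -0.37 on both 4-cell arrays, at 0.38, -0.15 and -0.22 at 28 cells and at 1.65, 1.07 and 1.24 at 55 cells. It was at 1.08 and 1.11 at 95 cells and at 1.42, 1.24 and 1.02 at 190 cells, and the last 3 stages overlapped.

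From 4 to 190 cells the A probe of WBGene00041459 changed by -1.82 (3.53-fold lower) and the B probe by 1.59 (3.02-fold higher), with detected signal from both on every array of these stages. The A probe made most of its change before 28 cells (-1.40) and the B probe made most of its own between 28 and 55 cells (1.31). This was the single gene of the 5 with a further probe on the array. Its C probe averaged -1.75 ± 0.037 (SD, n = 2) in the 4-cell embryo, -1.86 ± 0.25 (n = 3) when 28 cells were present and -0.32 ± 0.12 (n = 3) by 55 cells. Later averages were -0.12 ± 0.18 (n = 2, 95 cells) and -0.28 ± 0.27 (n = 3, 190 cells). The C probe stayed below the level minimum, was well above background on each of the 12 arrays with flags, and changed by 1.46 from 4 to 190 cells, the direction of the B probe. Its rise, like that of the B probe, fell between 28 and 55 cells.

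In WBGene00040537 the A probe rose early and then held its level, while the B probe, bright at every stage, declined slowly. The A probe was at 1.24 and 2.22 at 4 cells, at 4.22, 4.08 and 3.61 at 28 cells and at 4.27, 4.35 and 4.44 at 55 cells. It stood at 4.68 and 4.10 at 95 cells and at 4.24, 4.98 and 3.75 at 190 cells. The stages from 28 cells on overlapped with their neighbours in the order of means, and both 4-cell arrays lay below all of them.

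The B probe of WBGene00040537 was at 6.97 on both 4-cell arrays, at 6.70, 6.97 and 6.90 at 28 cells and at 6.48, 6.34 and 6.62 at 55 cells. It was at 6.31 and 5.52 at 95 cells and at 5.32, 6.12 and 4.88 at 190 cells. Stage means fell in the order of time. Only the 95-cell and 190-cell arrays overlapped, although the 4-cell arrays came within rounding of replicate B of 28 cells. The step before 28 cells was smaller than the SD of the 28-cell arrays (0.14, n = 3). The A probe changed by 2.60 from 4 to 190 cells (6.05-fold) and the B probe by -1.53 (2.89-fold lower). The A probe gained 2.24 before 28 cells and at most 0.38 in any later interval, whereas the B probe changed by -0.12, -0.38, -0.56 and -0.48.

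The 4-cell and 190-cell arrays did not overlap for either probe of any of the 5 genes, which held for 85.6% of the 9736 probes of all 4868 genes and is no mark of the selection. How far the probes of a gene parted is measured by the difference between the A and the B level on the same array, from which the scaling of the array cancels. From 4 to 190 cells this difference changed 38.7-fold in WBGene00026565, 17.5-fold in WBGene00040537 and 10.7-fold in WBGene00041459. In WBGene00000333 it changed 201.2-fold with the B probe raised, on replicate A of 4 cells, to that array's lowest signal well above background. Replicate B of 4 cells exceeded the lowest such signal of its own array and was kept. The difference changed 187.1-fold with a common floor and 47.9-fold with normexp background correction, so that its size depends on how dim signals were treated. In WBGene00027677, where 1 of the 190-cell arrays gave only a bound for the A probe, it changed by -7.92 on the log2 scale, and by -6.06 with a common floor. The rule used this contrast, and nothing is read from it: over all 4868 genes the difference passed limma's test at an adjusted p under 0.05 in 8.77%, and its arrays did not overlap in 34%.

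The 8 arrays of the 28-cell, 55-cell and 95-cell stages played no part in the change the rule used and entered it only through the level minimum. A limma fit of the A minus B difference on these arrays alone therefore measured whether the probes of the 5 genes also parted within the middle of the course. One exception concerns WBGene00027677, whose A probe met the level minimum at 28 cells and at neither end, so that its high 28-cell level was needed for its selection and its comparisons with 28 cells are not independent of the rule. The other 4 genes met the minimum with both probes at an end stage.

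Between 28 and 95 cells the difference changed in the direction of the whole course in each of these 4 genes, and 2 of the 4, WBGene00000333 and WBGene00026565, passed the test (adjusted p under 0.05 over 4868 genes), where 38 of all 4477 genes that met the minimum at an end stage did (0.849%). From 28 to 55 cells 1 of the 4 passed, WBGene00000333, beside 16 of the 4477 (0.357%). From 55 to 95 cells 0 of the 4 passed and 0 of the 4477, of which 126 had an unadjusted p under 0.05 in the same limma fit. WBGene00027677, whose comparisons with 28 cells are not independent of the rule, passed in all 3 comparisons. With it the counts were 3, 2 and 1 of the 5 genes, and 1.09%, 0.39% and 0.164% of all 4868 genes. These counts with WBGene00027677 are a description only. From 28 to 95 cells 1.03% of all genes passed in the direction of their own change from 4 to 190 cells. The signs were those of the whole course in 5 of 5 genes in each comparison, WBGene00027677 included, against 58.9%, 51.9% and 60.3% of all genes. At the threshold of 1.0 they were so in only 11 of the 18 opposed genes in each comparison. Of those 18 genes, 5 passed from 28 to 95 cells. Leaving out 1 of the 8 arrays at a time gave 2 to 4 of the 5 genes from 28 to 95 cells, beside 28 to 74 of all genes tested. WBGene00027677 was always among these, and without replicate A or B of 95 cells the only other was WBGene00000333. From 28 to 55 cells 0 to 3 of the 5 passed, beside 1 to 32 of all genes, with 0 without replicate B or C of 55 cells. From 55 to 95 cells 1 of the 5 passed, WBGene00027677, beside 3 to 13 of all genes. Across all 4868 genes the change of the difference from 28 to 95 cells had r = 0.466 with that from 4 to 190 cells, over arrays that the comparisons do not share.

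**Figure D4:**
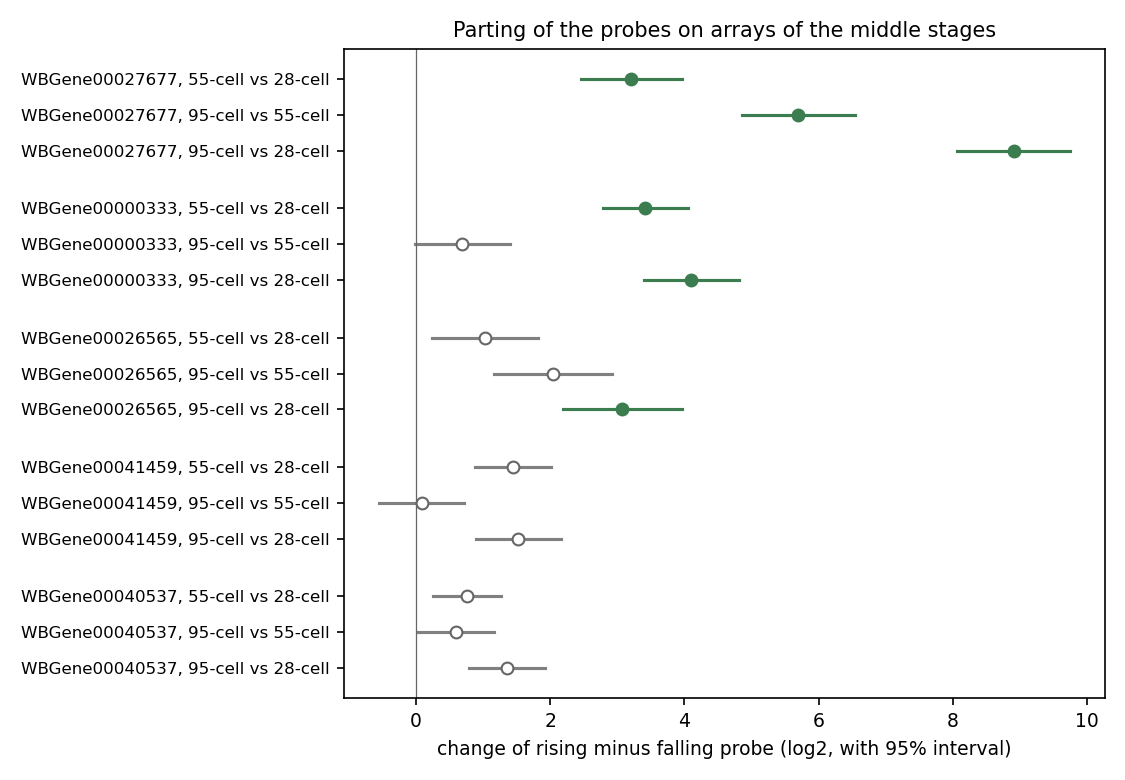
Change of the rising minus the falling probe (log2) in the 3 comparisons among 28-cell, 55-cell and 95-cell arrays, with 95% intervals from limma, where filled green points passed an adjusted p under 0.05 over 4868 genes. All points lie right of 0, the nearest that of WBGene00041459 between 55 and 95 cells and the farthest at 8.91 in WBGene00027677 between 28 and 95 cells. The comparisons of WBGene00027677 with 28 cells are not independent of its selection.

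In WBGene00027677 the comparisons with 28 cells are not independent of the rule, because its A probe met the level minimum only there. Their p-values are given as a description. The A minus B difference changed by -8.91 from 28 to 95 cells (SE 0.36, 95% interval -9.75 to -8.06, limma adjusted p = 0.000117). On replicate A of 95 cells the signal of the A probe did not clear background, and the change was -7.47 with a common floor (adjusted p = 0.000284) and -6.68 with normexp background correction (adjusted p = 0.00182). Both intervals contributed, with -3.21 from 28 to 55 cells (SE 0.32, adjusted p = 0.0113) and -5.70 from 55 to 95 cells (SE 0.36, adjusted p = 0.00263). The latter was -4.26 with a common floor (adjusted p = 0.00626) and -3.78 with normexp (adjusted p = 0.0158). The call from 28 to 55 cells was lost without any 1 of the 55-cell arrays, with adjusted p = 0.0514 without replicate A, 0.05004 without B and 0.0726 without C. On the arrays the rising minus the falling probe, set to 0 at the 28-cell mean, stood between -0.34 and 0.48 at 28 cells, between 2.74 and 3.70 at 55 cells and at 8.61 and 9.20 at 95 cells, with no overlap between stages. At 4 cells it was already at 2.15 and 2.53, above every 28-cell array, so that the mean difference first moved against its later direction. That step, 2.34 for A minus B, did not pass in the fit on all 13 arrays (limma adjusted p = 0.0525). Tested alone, the A probe fell by 6.86 from 28 to 95 cells (limma adjusted p = 7.93e-07) and the B probe rose by 2.05 (adjusted p = 0.00126), in all 2 of 2 arrays at 95 cells against all 3 at 28 cells.

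WBGene00000333 parted by -4.10 from 28 to 95 cells (SE 0.30, 95% interval -4.81 to -3.39, limma adjusted p = 0.00126), 17.2-fold. Nearly all of it came between 28 and 55 cells, with -3.41 (SE 0.27, adjusted p = 0.00734), whereas the change from 55 to 95 cells was -0.69 (SE 0.30, adjusted p = 0.9998). The call from 28 to 55 cells was lost without replicate B (adjusted p = 0.05004) or replicate C (adjusted p = 0.0705) of 55 cells. The rising minus the falling probe lay between -0.60 and 0.30 at 28 cells, between 3.16 and 3.65 at 55 cells and at 4.17 and 4.03 at 95 cells. At 4 cells it lay at -4.16 and -3.84, so that the parting before 28 cells was of similar size. Over the middle stages the probes moved the same way at unequal rates: the A probe rose by 1.07 (limma adjusted p = 0.00457) and the B probe by 5.17 (adjusted p = 1.73e-06) from 28 to 95 cells. Opposed movement of the probes in this gene thus belonged to the comparison with 4 cells. With normexp background correction the difference changed by -2.52 from 28 to 95 cells (adjusted p = 0.00302).

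WBGene00026565 parted by 3.08 from 28 to 95 cells (SE 0.38, 95% interval 2.19 to 3.96, limma adjusted p = 0.00947), 8.43-fold. The steps were 1.03 from 28 to 55 cells (SE 0.34, adjusted p = 0.655) and 2.04 from 55 to 95 cells (SE 0.38, adjusted p = 0.180), neither past the test. The rising minus the falling probe lay between -0.11 and 0.14 at 28 cells and at 3.15 and 3.0002 at 95 cells, and the 55-cell arrays lay apart at 0.20, 1.31 and 1.58. Its probes moved oppositely here too: the A probe rose by 1.30 (limma adjusted p = 0.0232) and the B probe fell by 1.78 (adjusted p = 0.00690). The call needed both 95-cell arrays while the size did not: the change was 3.0002 without replicate A (adjusted p = 0.119) and 3.15 without replicate B of that stage (adjusted p = 0.0765). The call was also lost with scan date as a block (2.82, adjusted p = 0.102).

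The parting of WBGene00041459 and WBGene00040537 on the middle arrays did not pass the test over all genes. In WBGene00041459 it was -1.53 from 28 to 95 cells (SE 0.27, 95% interval -2.16 to -0.89, limma adjusted p = 0.0583), of which -1.44 came between 28 and 55 cells (SE 0.24, adjusted p = 0.0906) and -0.083 after 55 cells (SE 0.27). All 5 arrays of 55 and 95 cells, at 1.34 to 1.67 on the scale of rising minus falling probe, lay above the 28-cell arrays at -0.45 to 0.46. Without replicate C of 28 cells, the array with no scanner output of its own, the change was -1.76 from 28 to 95 cells (adjusted p = 0.0172) and -1.67 from 28 to 55 cells (adjusted p = 0.0260). With 1 array left out at a time, the change from 28 to 95 cells ranged from -1.76 to -1.30 and its adjusted p from 0.0172 to 0.292. Without replicate B of 95 cells the small change after 55 cells turned to 0.060. The B probe alone rose by 1.09 (limma adjusted p = 0.0111), and the A probe changed by -0.43 (adjusted p = 0.374).

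In WBGene00040537 the change was 1.36 from 28 to 95 cells (SE 0.24, 95% interval 0.80 to 1.92, limma adjusted p = 0.0559), with 0.76 (SE 0.21) and 0.60 (SE 0.24) in the separate intervals. The 28-cell arrays lay between -0.40 and 0.40, the 55-cell arrays between 0.68 and 0.89 and the 95-cell arrays at 1.26 and 1.46, with no overlap between stages. With 1 array left out at a time the change ranged from 1.16 to 1.56 and its adjusted p from 0.0212, without replicate A of 28 cells, to 0.281. The B probe alone fell by 0.94 (limma adjusted p = 0.0217), and the A probe changed by 0.42 (adjusted p = 0.247).

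**Figure D5:**
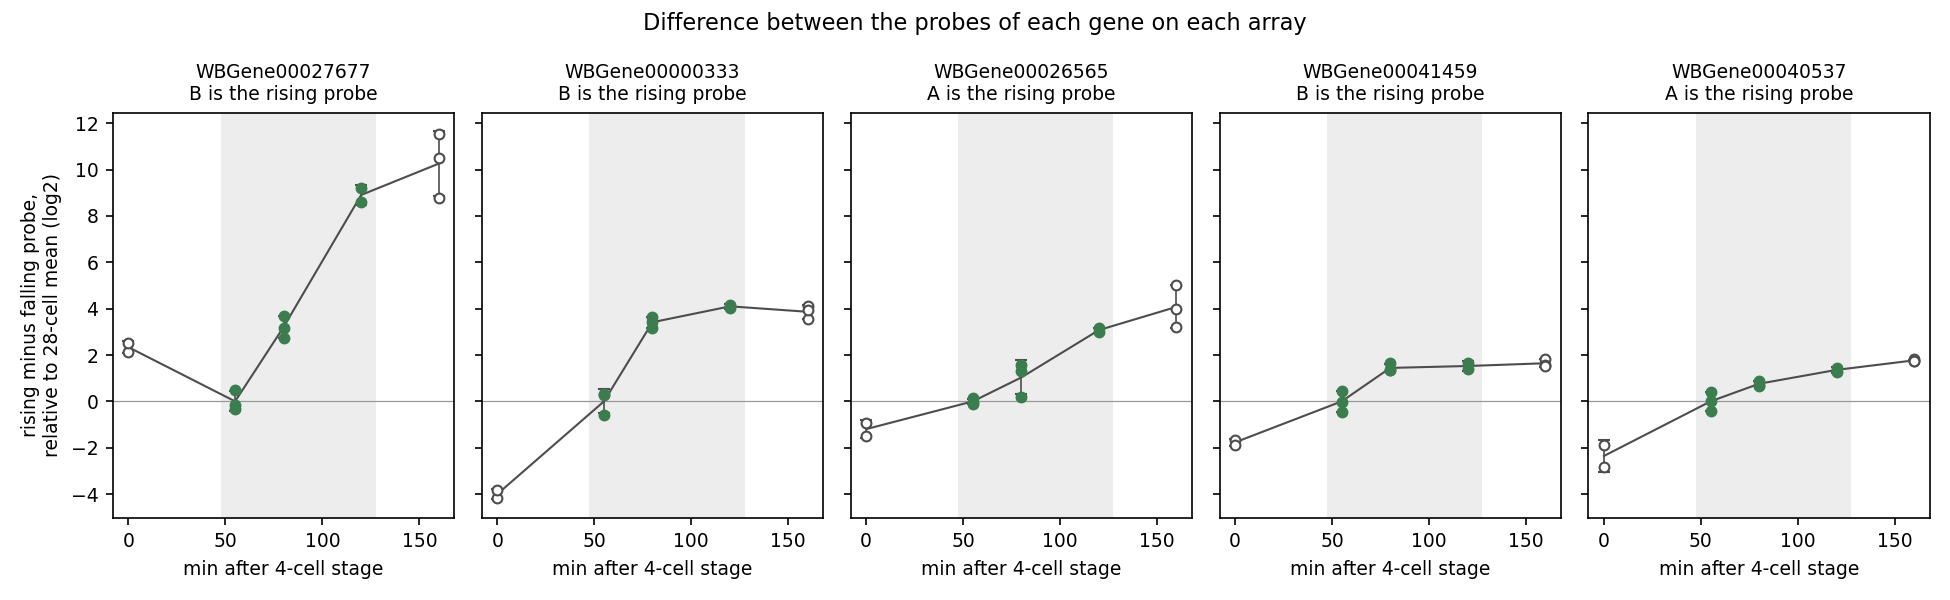
Rising minus falling probe of each gene on each array (log2, set to 0 at the 28-cell mean) against minutes after the 4-cell stage, with lines through stage means and bars of 1 SD. Filled green points on grey are the 8 arrays of the middle stages that were tested, and open points are the 4-cell and 190-cell arrays that chose the genes. WBGene00027677 dips from 4 to 28 cells before it parts by 8.91, while WBGene00000333 and WBGene00041459 level off after 55 cells.

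Taken probe by probe, 8 of the 10 probes of these genes passed the test between 28 and 95 cells, 5 up and 3 down, where 50.8% of the 14497 probes tested passed. From 28 to 55 cells 3 of 10 passed (35.2% of all probes), and from 55 to 95 cells 3 of 10 (20% of all). Single calls were therefore common, whereas opposite calls by the A and B probes of 1 gene were not. Both probes passed in opposite directions in 6 of the 4868 genes (0.123%), and WBGene00027677 and WBGene00026565 were 2 of those 6. The 28-cell level of the A probe of WBGene00027677 was needed for its selection, and among the 4477 genes that met the minimum at an end stage there were 5 such genes, 1 of them WBGene00026565. From 55 to 95 cells there were 2 such genes (0.0411%), 1 of them WBGene00027677, and from 28 to 55 cells there were 0 (0%), where 245 genes had a difference changed at an unadjusted p under 0.05. The signs of these single-probe changes in WBGene00027677 and WBGene00026565 were the same with scaling on detected probes (-6.74 and 2.16, and 1.41 and -1.66, for A and B) and with spike-ins (-6.45 and 2.38, and 1.44 and -1.59).

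The courses fell into different shapes. In WBGene00000333 and WBGene00041459 the A probe made its largest change before 28 cells and the B probe between 28 and 55 cells, and the difference moved by at most 0.69 in size from 55 to 95 cells. In WBGene00040537 the A probe changed before 28 cells and the B probe over all later stages. In WBGene00026565 the mean difference moved the same way in each interval, by 1.20, 1.03, 2.04 and 1.00. Of these steps the middle pair was tested on the middle arrays alone and did not pass. The first and last steps, which involve the arrays that chose the genes, did not pass in the fit on all arrays. Their limma adjusted p was 0.238 and 0.999. No test compared these shapes.

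Without the 4 arrays whose stage tag goes against the title, the difference changed from 28 to 95 cells by -9.44 in WBGene00027677, -3.73 in WBGene00000333, 2.98 in WBGene00026565, -1.44 in WBGene00041459 and 1.46 in WBGene00040537. That fit left 1 array at 95 cells, and 0 of all genes passed limma's test (207 at an unadjusted p under 0.05, the 5 genes among them, whose lowest adjusted p was 0.0730). Within the first scan date, again with 1 array at 95 cells, the values were -8.54, -4.33, 3.099, -1.61 and 1.06, and again 0 genes passed (402 at an unadjusted p under 0.05, these 5 among them, with a lowest adjusted p of 0.0880). In both fits the lone array was assumed to vary like those of the other stages, and all 5 genes kept their direction. Without replicate C of 28 cells the values were -8.83, -4.25, 3.02, -1.76 and 1.16. In that fit 4 of the 5 genes passed, WBGene00027677 among them, beside 74 of the 4861 genes tested.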

How the data were processed

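Staged embryos were measured on 13 arrays of 1 colour, with no treatment or control group. The deposited intensity is the background-subtracted and spatially detrended processed signal of Agilent Feature Extraction (named in the submitters' processing notes) 9.5.3.1, per the file headers. It equals the scanner output on 12 arrays (relative tolerance 1e-06) and was not scaled between arrays. Genome build and probe positions are not given in the sources used here. Of the scanner files, flags and median spot and background intensity were used as deposited, and 0 columns of another series were present.

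Stages come from the titles. Log2 intensity minus each array's 75th percentile over all probes gave the levels. The A minus B difference was fitted over 4868 genes with limma 3.58.1 in R 4.3.3 (lmFit, eBayes, two-sided, Benjamini-Hochberg, adjusted p under 0.05), on all arrays and on the 8 arrays of 28 to 95 cells alone, and single probes likewise over 14497 probes. The script was tested on simulated data. Members and lists were chosen with earlier results of these data known, and all 5 genes are named. The planned comparison of 5 lists of known genes was not made, because 91 of the 106 listed genes have a symbol in the reference table but 0 array identifiers do. Alternatives were other scalings, normexp correction (offset 50, on median signals in place of the planned mean signals, which the files lack), filters on dim or flagged spots, a common floor, scan date, replicate letter and arrays left out.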

Additional observations from a re-analysis of the deposited data

How the results depend on the processing

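The count of 5 opposed genes was 1 with scaling on detected probes and the level minimum reapplied, and that 1 was none of the 5. Of the 5 only WBGene00040537 was among the 1855 genes tested there, and it fell short of the threshold (B probe -0.24). The count was 2 with normexp and 4 with a common floor (WBGene00027677 lost under both). With normexp WBGene00041459 (B probe 1.33) and WBGene00040537 (B probe -1.33) were lost as well. The count was 3 with detection at both ends, 8 without the 4 arrays with contradictory tags, and 18 and 3 at thresholds of 1.0 and 2.0. Leaving out 1 array gave 5 to 8. For the middle arrays, genes passing from 28 to 95, 28 to 55 and 55 to 95 cells (53, 19 and 8) were 26, 9 and 14 with detected-probe scaling and the minimum reapplied (1, 0 and 0 of the 5 genes, and 135 genes in place of 427 from 4 to 190 cells), but 53, 19, 8 and 427 with the same scaling and the genes kept, so that the smaller set of genes moved the counts. They were 111, 32 and 33 with a common floor (5 of the 5 genes from 28 to 95 cells). Spike-in scaling without replicate C of 28 cells gave 32 and 13 for the last pair, as did leaving out that array alone. Within the first scan date 0 genes passed in each (limma; 402, 228 and 256 at an unadjusted p under 0.05), as without the 4 tagged arrays (207, 143 and 81); each of these fits had 2 residual degrees of freedom. Leaving out 1 array gave 28 to 74, 1 to 32 and 3 to 13 genes, with 2 to 4, 0 to 3 and 1 to 1 of the 5 genes, and 330 to 470 genes from 4 to 190 cells. With the replicate letter as a block 149, 37 and 29 genes passed, and 4, 2 and 1 of the 5. Deviations from stage means had r from -0.49 to 0.54 over 23 same-letter pairs (median 0.020) and from -0.57 to 0.53 over 44 others (median -0.0061). Deviations cancel within a stage, which forces r of both signs, so these values cannot settle whether the letters pair the samples. In WBGene00041459 the change from 55 to 95 cells (-0.083) ranged from -0.23 to 0.060 when 1 array was left out, the latter without replicate B of 95 cells, and was 0.11 within the first scan date. For the reversals and the moves under the common floor, normexp and the replicate letter the cause was not tested. Leaving out outlier and saturated spots (5 opposed genes; 53, 19, 8 and 416 genes) and a trend in the prior spread (53, 19, 9 and 421) kept the counts they were run for within 1.5 times; scaling on gene probes alone was run for the count of opposed genes (5). Signals near background limit the sizes in WBGene00027677 (A probe) and WBGene00000333 (B probe).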
